A study of Mus musculus with 24 samples.

Results

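Runx1, Runx2, Runx3, Cbfb and Sp7 were followed through an RNA-seq series of mouse pharyngeal arches. The 5 genes were chosen by name, as the RUNX transcription factor family, its shared partner subunit and the zinc finger factor that acts after Runx2 in bone formation, out of 26611 gene identifiers in the count table. Of the 5, Runx1, Runx2, Cbfb and Sp7 passed the filter on low counts. Runx3 did not and was not tested.

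The series held 24 libraries of polyadenylated RNA in 6 genotype groups of 4 biological replicates. Its title asks what losing Kat6a, Dlx5 or both does to craniofacial development. Kat6a encodes a histone acetyltransferase that in other cell systems is known as a coactivator of RUNX factors, and Dlx5 encodes a homeodomain factor of the lower jaw primordium. All embryos were C57BL/6 females at E10.5, and the labels give the tissue as pharyngeal arches 1 and 2. The groups were Kat6a homozygous knockout with 2 normal Dlx5 alleles, Kat6a heterozygous knockout with 2 normal Dlx5 alleles, double heterozygous knockout of Kat6a and Dlx5, Dlx5 homozygous knockout with 2 normal Kat6a alleles, Dlx5 heterozygous knockout with 2 normal Kat6a alleles, and wild type for both genes. The sources used here do not describe the construction of either allele, or how many embryos went into a library.

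RUNX proteins bind DNA through their Runt domain, and CBFβ, the product of Cbfb, does not itself bind DNA but strengthens the binding of all RUNX proteins. RUNX2 is required for osteoblasts to form, and SP7, also called osterix, is required downstream of it. RUNX1 is known chiefly for its requirement in definitive blood formation, and RUNX3 for its roles in sensory neurons of the dorsal root ganglia and in T cells. At the stage sampled here the arch mesenchyme, much of it from the neural crest, has not yet formed bone.

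Libraries held 10.4 to 28.2 M counts on genes, the highest being wild type replicate 1 and the next Dlx5 heterozygous replicate 4 at 16.7 M. The embryos came from 2 mouse facilities, which the labels give as batches: Kat6a homozygous and wild type libraries lay in batch 2, Dlx5 homozygous libraries in batch 1, and the heterozygous groups in both. Kat6a gene-level counts averaged 228 ± 15 CPM (TMM-scaled counts relative to the library total, SD, n = 4) in libraries labelled Kat6a homozygous and 202 ± 41 CPM in wild type. Dlx5 averaged 62.6 ± 5.1 CPM in libraries labelled Dlx5 homozygous and 69.4 ± 6.8 CPM in wild type (SD, n = 4 each). Neither targeted gene showed a called loss in its homozygous group, so every direction below is a direction in the libraries labelled as such. Dlx6os1, a noncoding gene of the Dlx5 and Dlx6 locus named here with its values in view, averaged 25.1 ± 1.4 CPM in libraries labelled Dlx5 homozygous, 23.3 ± 1.0 CPM in double heterozygous and 11.4 ± 1.2 CPM in libraries labelled Kat6a homozygous, against 48.8 ± 6.2 CPM in wild type (SD, n = 4 each). Its log2 fold changes were -0.82 (edgeR adjusted p = 0.0116), -0.96 (0.000107) and -2.10 (1.52e-13) in that order. Counts summed over a whole gene do not reveal the loss of single exons. The 8 arch mesenchyme markers were all detected, with summed levels of 1540 to 2050 CPM over all groups.

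The start regions of the 3 Runx genes carry a stretch in common, shown here because it holds the RUNX core motif in tandem in each gene. In the RefSeq promoter windows of GRCm38.p6, which run from 250 bases before a start site to 50 after it, capitals mark ACCACA, the reverse complement of the core TGTGGT. The 3 stretches lie at chr17:44814584-44814613 (minus strand), chr16:92826026-92826055 (minus strand) and chr4:135120502-135120531 (plus strand).
Runx2: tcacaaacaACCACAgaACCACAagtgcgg
Runx1: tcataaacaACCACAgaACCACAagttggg
Runx3: ggtccctcaACCACAgaACCACAaggccag
The start sites of these windows are the outermost annotated starts of Runx1 and Runx3, while the Runx2 window is set on position 44814627, which lies 170 bases inside the gene from its outermost annotated start. Counted from the window's start site, the motifs begin at 24 and 32 in Runx2, at 29 and 37 in Runx1, and at -134 and -126 in Runx3. The run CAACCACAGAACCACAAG, which spans both motifs, is the longest that these 3 windows share. It was taken from them, so its presence in the 3 was fixed by that choice. On either strand it was found in 4 of 32851 windows (0.0122%). These are the 3 and a window of Gm16225 on the opposite strand that overlaps the Runx3 window. The 6-base motif ACCACA alone was found on either strand in 5506 windows (16.8%). The other RefSeq windows of Runx1 and Runx3 and the window of Cbfb held no match, which says only that these letters are not there. The table held no window for Sp7.

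Because Runx2 carries the main result of the family, the 250 bases before its window's start site are shown too, at chr17:44814628-44814877 on the minus strand, of which 170 lie within the annotated gene, with the one ACCACA match in them in capitals.
Runx2 upstream: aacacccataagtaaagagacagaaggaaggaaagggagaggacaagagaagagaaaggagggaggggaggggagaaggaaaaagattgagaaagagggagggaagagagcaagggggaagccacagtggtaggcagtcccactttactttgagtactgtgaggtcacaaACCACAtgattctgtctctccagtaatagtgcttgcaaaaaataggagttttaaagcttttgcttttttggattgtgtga
Such a match is a description of the sequence. No binding was measured in this series.

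Runx2 was higher in every mutant library than in every wild type library. Runx2 (Entrez gene 12393, chromosome 17, 44495987 to 44814797 in GRCm38) encodes the factor required for the osteoblast lineage. It was rare at this stage, with 28 to 92 counts per library. The counts sum over both Runx2 promoters and all isoforms, and in bulk tissue a larger share of Runx2 cells and more Runx2 RNA per cell cannot be told apart.

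Runx2 stood at 5.28, 2.88, 5.0 and 4.67 CPM in the 4 libraries labelled Kat6a homozygous, replicates 1 to 4. The Kat6a heterozygous libraries gave 4.29, 4.83, 5.47 and 4.97 CPM of Runx2. The double heterozygous libraries gave 6.48, 5.73, 5.33 and 4.14 CPM of Runx2. Every one of these libraries lay above the wild type range, with replicate 2 of the Kat6a homozygous group closest to it. Runx2 stood at 4.52, 4.21, 4.70 and 4.35 CPM in the libraries labelled Dlx5 homozygous. The Dlx5 heterozygous libraries gave 4.37, 3.92, 6.35 and 5.49 CPM of Runx2. Wild type gave 2.51, 2.78, 2.42 and 2.44 CPM of Runx2. The wild type libraries were therefore the lowest 4 of the 24, and the mutant groups overlapped one another. At this depth the library of Kat6a homozygous replicate 2 (34 counts, 95% exact Poisson interval 2.00 to 4.03 CPM) cannot be set apart from wild type replicate 2 (34 counts, 1.93 to 3.89 CPM) on its own. These intervals cover counting error only.

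**Figure D1:**
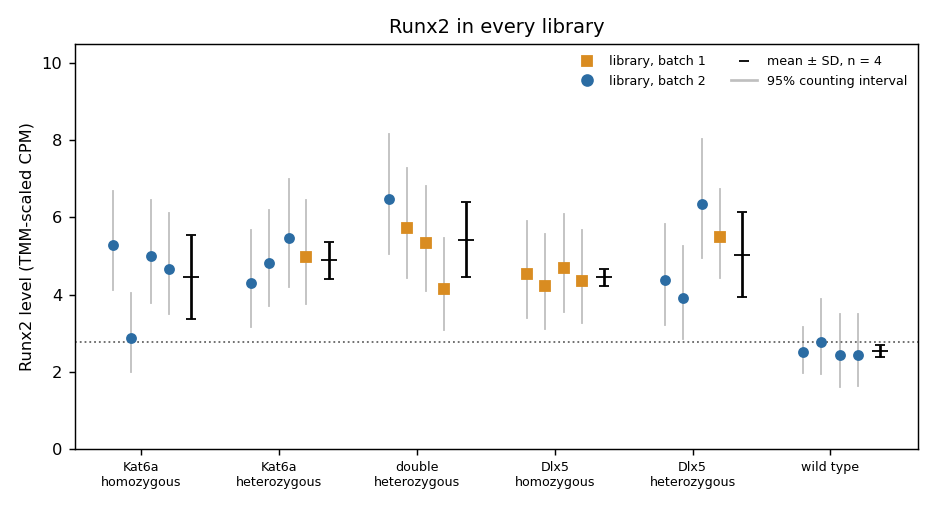
Runx2 level in each of the 24 libraries, as TMM-scaled CPM on a linear axis from 0, with 1 point per library (bars on points: 95% exact Poisson interval of its count), the mean ± SD of each labelled group (n = 4) beside it and a dotted line at the highest wild type library. The 20 mutant libraries lie between 2.88 and 6.48 CPM, all above the 4 wild type libraries at 2.42 to 2.78 CPM.

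By group mean, Runx2 was highest in double heterozygous libraries at 5.42 ± 0.98 CPM, followed by Dlx5 heterozygous at 5.03 ± 1.1, Kat6a heterozygous at 4.89 ± 0.49, Kat6a homozygous at 4.46 ± 1.1, Dlx5 homozygous at 4.45 ± 0.21 and wild type at 2.54 ± 0.17 CPM (SD, n = 4 each). Neighbours in this order overlapped library by library except the last step, from Dlx5 homozygous to wild type. The spread among wild type libraries was small for such low counts. Their coefficient of variation was 6.57%, where counting error alone would give 16.9%.

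In libraries labelled Kat6a homozygous, Runx2 rose against wild type by a log2 fold change of 0.81 (SE 0.18, 95% interval 0.43 to 1.19, edgeR adjusted p = 0.0202), which is 1.76-fold. It was the only 1 of the 4 tested family genes that was called. Over all 14506 genes tested, 222 were called in this comparison (1.53%), 68 of them higher (0.469%), and Runx2 ranked 123 by p. All 4 libraries of the group lay above all 4 of wild type, as did those of 416 genes (2.87%). Both groups came from batch 2, so no batch difference lies between them. The call was lost without Kat6a homozygous replicate 1 (log2 fold change 0.71, adjusted p = 0.097), replicate 3 (0.75, adjusted p = 0.0682) or replicate 4 (0.78, adjusted p = 0.0567) and without wild type replicate 4 (0.79, adjusted p = 0.0517). It was also lost in limma voom (0.81, adjusted p = 0.0813), with batch 2 alone (0.80, adjusted p = 0.0869) and with only both compared groups in the fit (0.80, adjusted p = 0.133), and the size stayed between 0.71 and 1.01 in all settings run.

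In double heterozygous libraries Runx2 rose by a log2 fold change of 1.13 (SE 0.22, 95% interval 0.68 to 1.57, edgeR adjusted p = 0.0202), or 2.18-fold, the largest of the 5 comparisons with wild type. Again it was the single family gene called, where 65 of all genes were called (0.448%), 43 of them higher (0.296%), and it ranked 14 by p. All 4 double heterozygous libraries lay above wild type, as did those of 409 genes (2.82%). Of these libraries 3 came from batch 1 and replicate 1 from batch 2, so a fitted batch term enters the value, which for Runx2 was -0.05 (SE 0.16) as batch 1 minus batch 2. The call was lost without double heterozygous replicate 1 (0.88, adjusted p = 0.454), without wild type replicate 4 (1.11, adjusted p = 0.0562) and without Kat6a heterozygous replicate 4 (1.14, adjusted p = 0.0598). It was lost as well with batch 2 alone, which leaves 1 double heterozygous library assumed to vary like the other groups (1.34, adjusted p = 0.155), and with only both compared groups in the fit (1.34, adjusted p = 0.101).

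In the other comparisons with wild type Runx2 was not called, with fold changes of similar size. The Kat6a heterozygous value was 0.96 (SE 0.19, 95% interval 0.57 to 1.34, edgeR adjusted p = 0.104), ranking 4 by p among all genes tested. The Dlx5 heterozygous value was 1.00 (SE 0.19, 95% interval 0.62 to 1.39, edgeR adjusted p = 0.109), with the smallest p of all genes tested. All 4 Kat6a heterozygous libraries lay above wild type, as did those of 181 genes (1.25%), and all 4 Dlx5 heterozygous libraries did, as did those of 272 genes (1.88%). By edgeR on all 24 libraries, 0 genes were called in either comparison (0% in each), while 1648 and 1645 genes had an unadjusted p under 0.05. DESeq2 called 80 genes for Kat6a heterozygous and 31 for Dlx5 heterozygous libraries, and limma voom called 0 in both. Runx2 gained a call for Kat6a heterozygous libraries without wild type replicate 1 (0.94, adjusted p = 0.0319), the deepest library, a setting in which 196 genes were called over the whole table where 0 were with it. For Dlx5 heterozygous libraries it gained one in DESeq2 (adjusted p = 0.00974), without replicate 2 of 4 groups, called the neuron-rich libraries below (1.17, adjusted p = 0.0231), and without Kat6a homozygous replicate 2 (1.01, adjusted p = 0.0445), settings with 31, 7 and 1 genes called over the whole table. In libraries labelled Dlx5 homozygous the value was 0.86 (SE 0.24, 95% interval 0.35 to 1.36, edgeR adjusted p = 0.255), where 8 genes were called (0.0551%) and 336 had all 4 libraries above wild type (2.32%). That group and wild type share no batch, so this value depends on the batch term fitted from the heterozygous groups.

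The 5 comparisons use the same 4 wild type libraries, so their fold changes are not independent of one another. Across the whole table, 5 of 14506 genes (0.0345%) had all 20 mutant libraries above all 4 wild type libraries, and 5 (0.0345%) had all 20 below. Runx2 had the largest ratio of the 5 higher genes, with a mean of 4.85 CPM in mutant libraries and 2.54 CPM in wild type. The others, listed after their values were seen, were Slitrk6, a neuronal transmembrane protein with 52.3 CPM in mutant and 37.3 CPM in wild type libraries, Postn, the matrix protein periostin, the predicted gene Gm5446, and Strn3, a striatin of the PP2A phosphatase complex. Postn had 38.3 CPM in mutant and 28.4 CPM in wild type libraries, Gm5446 had 35.6 CPM in mutant and 29.1 CPM in wild type, and Strn3 had 137 CPM in mutant and 122 CPM in wild type.

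Within batch 2 alone, exact permutation of the library labels on log2 CPM gave the same direction. The Runx2 difference was 0.74 between 4 Kat6a homozygous and 4 wild type libraries (two-sided exact p = 0.0286, the smallest this design allows, 0.153 adjusted over 16 tests). For the 3 Kat6a heterozygous libraries of that batch the difference was 0.89, and for the 3 Dlx5 heterozygous libraries 0.87, each against the 4 wild type libraries (two-sided exact p = 0.0286 in both, again the smallest possible, and 0.153 adjusted). None of the 16 tests passed after adjustment.

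Loss of the second Kat6a or Dlx5 allele did not come with a further called change of Runx2. Libraries labelled Kat6a homozygous and Kat6a heterozygous libraries differed by -0.14 (SE 0.18, 95% interval -0.52 to 0.23, edgeR adjusted p = 0.891), in a comparison where 93 genes were called (0.641%). Libraries labelled Dlx5 homozygous and Dlx5 heterozygous libraries differed by -0.15 (SE 0.21, 95% interval -0.58 to 0.28, edgeR adjusted p = 0.773), where edgeR called no gene (0%), 1565 genes had an unadjusted p under 0.05, DESeq2 called 1 and limma voom 2. These intervals leave room for changes of either sign. The non-additive part, obtained by taking both single heterozygous changes from the double heterozygous change, was -0.83 (SE 0.25, 95% interval -1.36 to -0.31) with an unadjusted p of 0.00296 and an edgeR adjusted p of 0.877, in a contrast where 1 gene was called (0.00689%). Double heterozygous libraries thus had less Runx2 than the sum of both single changes on the log2 scale. This difference fails the correction over all genes. The contrast uses the same wild type libraries as the comparisons above, so its value is not independent of their low Runx2.

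**Figure D2:**
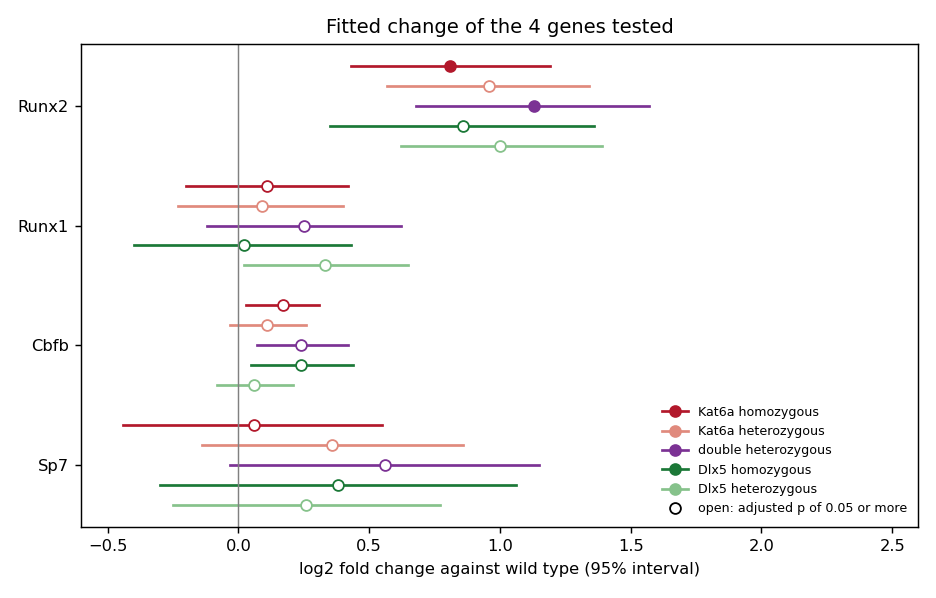
Log2 fold change against wild type of Runx2, Runx1, Cbfb and Sp7 in the 5 labelled mutant groups, from the edgeR fit over 24 libraries with a batch term, with 95% intervals as bars. Filled points are called at an adjusted p under 0.05, which holds for Runx2 in Kat6a homozygous (0.81) and double heterozygous (1.13) libraries alone.

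The gene Supt3 (chromosome 17, 44777118 to 45119294) overlaps the start of Runx2 and encodes a subunit of the SAGA transcription coactivator. It is described here because reads from shared sequence could affect the count of either gene. No source used here says whether the counting used strand. Supt3 averaged 18.9 to 20.5 CPM in the mutant groups and 20.3 ± 1.1 CPM in wild type (SD, n = 4). Its log2 fold changes ran from -0.08 to 0.02 over the 5 comparisons, none of them called (edgeR adjusted p = 0.837 to 0.962). RefSeq also lists noncoding genes that overlap Runx1, Runx2 and Cbfb, and these were not analysed here.

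Runx1 (Entrez gene 12394, chromosome 16, 92601466 to 92826074) was the more abundant of the RUNX genes. Its mean over all libraries was 1.19 RPKM (CPM divided by the deposited gene length in kilobases), against 0.644 RPKM for Runx2. Runx1 levels were 6.44 to 10.2 CPM in libraries labelled Kat6a homozygous, 7.0 to 9.55 in Kat6a heterozygous, 9.29 to 10.2 in double heterozygous, 7.18 to 9.76 in Dlx5 homozygous, 8.84 to 11.3 in Dlx5 heterozygous and 6.22 to 9.33 CPM in wild type libraries. Each mutant group overlapped wild type. The overlap was narrow in double heterozygous libraries, whose lowest stood at 9.29 CPM, just under the highest of wild type at 9.33 CPM. No Runx1 difference was called. The largest was the Dlx5 heterozygous value of 0.33 on the log2 scale (SE 0.15, edgeR adjusted p = 0.41), with a mean of 9.92 ± 1.0 CPM in Dlx5 heterozygous and 7.63 ± 1.4 CPM in wild type libraries (SD, n = 4 each).

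The balance between Runx2 and Runx1 set the wild type libraries apart. The ratio of Runx2 to Runx1, per length, ran from 0.476 to 0.809 in libraries labelled Kat6a homozygous, 0.578 to 0.655 in Kat6a heterozygous, 0.436 to 0.699 in double heterozygous, 0.475 to 0.697 in Dlx5 homozygous, 0.429 to 0.686 in Dlx5 heterozygous and 0.317 to 0.417 in wild type libraries. No mutant library reached down to the wild type range. The ratio holds the same Runx2 values as above and is given as a description.

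Runx3 (Entrez gene 12399, chromosome 4, 135120645 to 135177990) was close to absent from the arches at this depth. Libraries labelled Kat6a homozygous held 3, 2, 0 and 2 Runx3 counts. Kat6a heterozygous libraries held 3, 0, 3 and 2, and double heterozygous libraries 3, 1, 0 and 3. Libraries labelled Dlx5 homozygous held 3, 2, 1 and 4, Dlx5 heterozygous libraries 0, 4, 0 and 0, and wild type 3, 4, 2 and 2 counts of Runx3. No library exceeded 4 counts, and in the 6 libraries without a count a 0 allows up to 3 counts, or 0.179 to 0.279 CPM by library. Pooled over the 4 libraries of a group, the level was lowest in Dlx5 heterozygous libraries at 0.0807 CPM (95% exact Poisson interval 0.022 to 0.207, counting error only), against 0.173 CPM in wild type (0.0864 to 0.31). These intervals overlap, and a difference in Runx3 was not detectable at this depth.

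Cbfb (Entrez gene 12400, chromosome 8, 105170674 to 105217989), the subunit that all RUNX proteins share, was by far the most abundant of the 5 genes, with 77.7 RPKM on average and 2188 to 5777 counts per library. Per length, Cbfb exceeded the sum of the 3 Runx genes by 46.4 ± 12-fold in libraries labelled Kat6a homozygous and 41.3 ± 7.9-fold in Kat6a heterozygous libraries. The ratio was 38 ± 2.5 in double heterozygous, 43.8 ± 4 in Dlx5 homozygous, 35.7 ± 4.8 in Dlx5 heterozygous and 50 ± 5.1 in wild type libraries (SD, n = 4 each). By library it ran from 36.5 to 62.3 in Kat6a homozygous and from 44.7 to 55.7 in wild type libraries. Kat6a heterozygous and Dlx5 homozygous libraries also overlapped wild type, while double heterozygous and Dlx5 heterozygous libraries lay below it. The sum holds the same Runx2 values as above, so the ratio is a description. RNA levels do not give protein levels.

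Cbfb averaged 235 ± 16 CPM in libraries labelled Kat6a homozygous, 223 ± 19 in Kat6a heterozygous, 239 ± 17 in double heterozygous, 236 ± 15 in Dlx5 homozygous, 216 ± 11 in Dlx5 heterozygous and 209 ± 16 CPM in wild type libraries (SD, n = 4 each). Every mutant group overlapped wild type in CPM. No Cbfb difference was called. The smallest unadjusted p was that of double heterozygous libraries, with a log2 fold change of 0.24 (SE 0.083, unadjusted p = 0.00707, edgeR adjusted p = 0.185). For libraries labelled Kat6a homozygous the value was 0.17 (SE 0.069, edgeR adjusted p = 0.259).

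Sp7 (Entrez gene 170574, chromosome 15, 102356603 to 102367035), the osteoblast factor downstream of Runx2, was present at 14 to 49 counts per library and 0.95 RPKM on average. Sp7 levels were 1.89, 1.86, 1.98 and 2.73 CPM in libraries labelled Kat6a homozygous. Double heterozygous libraries gave 3.29, 2.52, 1.95 and 1.66 CPM of Sp7, and wild type gave 1.76, 2.70, 1.30 and 2.44 CPM. The groups overlapped throughout, and replicates within a group differed by as much as the groups did. Sp7 ranged from 1.69 to 3.06 CPM in Kat6a heterozygous, 1.20 to 2.51 in Dlx5 homozygous and 1.84 to 2.61 CPM in Dlx5 heterozygous libraries, again overlapping wild type.

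No Sp7 difference was called. The largest was the double heterozygous value of 0.56 (SE 0.29, 95% interval -0.03 to 1.15, edgeR adjusted p = 0.409), although the group means were as near as 2.35 ± 0.72 CPM in double heterozygous and 2.05 ± 0.64 CPM in wild type libraries (SD, n = 4 each). The fitted batch term of Sp7 was -0.50 (SE 0.22, unadjusted p = 0.0361, edgeR adjusted p = 0.728) as batch 1 minus batch 2, and without that term the double heterozygous log2 fold change was 0.21. For libraries labelled Kat6a homozygous the value was 0.06 (SE 0.24, 95% interval -0.44 to 0.55, edgeR adjusted p = 0.946). Runx2 was thus called in the Kat6a homozygous comparison where Sp7 was not. Whether the changes of both genes differ was not tested.

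**Figure D3:**
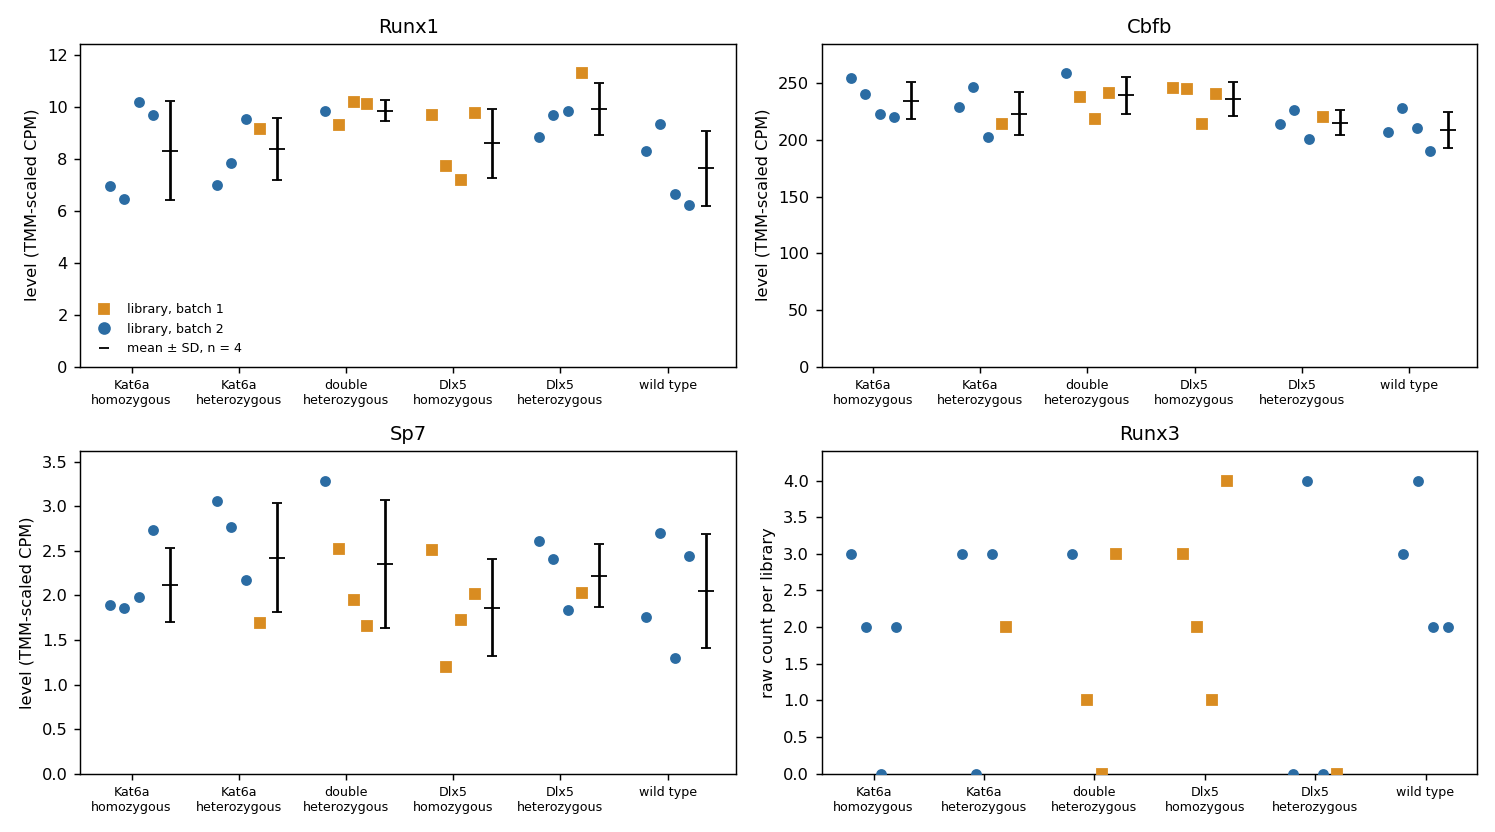
Levels of Runx1, Cbfb and Sp7 in each library as TMM-scaled CPM, with the mean ± SD of each labelled group (n = 4), and raw Runx3 counts per library with no mean. Linear axes start at 0. Runx1 (6.22 to 11.3 CPM), Cbfb and Sp7 overlap between every mutant group and wild type, and no library holds more than 4 Runx3 counts.

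Of genes that act upstream of Runx2 or restrain it, the 2 that were called were Dlx genes. In libraries labelled Kat6a homozygous, 0 of the 19 tested genes of the list rose and 2 fell (154 of all genes fell, 1.06%), with a list median of -0.08 on the log2 scale against 0.006 for all genes. Dlx5, which is known to activate Runx2, fell by 0.87 on the log2 scale (SE 0.080, edgeR adjusted p = 1.46e-07), with 37.9 ± 3.3 CPM in libraries labelled Kat6a homozygous and 69.4 ± 6.8 CPM in wild type (SD, n = 4 each). Dlx3, a related homeobox gene, fell by 0.86 (SE 0.081, edgeR adjusted p = 1.57e-07), with 55.2 ± 5.6 CPM in libraries labelled Kat6a homozygous and 100 ± 6.0 CPM in wild type. Runx2 was higher in these libraries, and also in the other 4 mutant groups, where neither Dlx gene was called. Dlx5 stood at -0.15 in Kat6a heterozygous, -0.07 in double heterozygous, 0.03 in Dlx5 homozygous and 0 in Dlx5 heterozygous libraries. Dlx3 stood at -0.31, -0.38, -0.3 and -0.21 in the same order. A link between Runx2 and either Dlx gene was not tested. The Dlx5 and Dlx3 calls in libraries labelled Kat6a homozygous held in all 35 alternative settings. Between libraries labelled Kat6a homozygous and Kat6a heterozygous libraries the values were -0.72 for Dlx5 (edgeR adjusted p = 1.17e-05) and -0.56 for Dlx3 (edgeR adjusted p = 0.000477). In the other 4 comparisons with wild type no gene of the list was called. The list medians there were -0.08 in Kat6a heterozygous, -0.03 in double heterozygous, 0.01 in Dlx5 homozygous and 0 in Dlx5 heterozygous libraries. Twist2, which like Twist1 restrains RUNX2 in mouse, had 39.8 ± 6.3 CPM in Kat6a heterozygous and 59.4 ± 7.8 CPM in wild type libraries, a log2 fold change of -0.59 (SE 0.12, edgeR adjusted p = 0.128). Elsewhere Twist2 was uncalled too, at -0.33 in Kat6a homozygous, -0.09 in double heterozygous, -0.31 in Dlx5 homozygous and -0.11 in Dlx5 heterozygous libraries.

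Cofactors of RUNX proteins, such as the Groucho/TLE corepressors, YAP and TAZ and the histone acetyltransferases, were all expressed. Of 27 tested, 1 rose in double heterozygous libraries (43 of all genes rose, 0.296%) and 0 fell, with a median of 0.08 against 0.007 for all genes. That gene was Kat6b, the closest relative of Kat6a, with 67.4 ± 3.4 CPM in double heterozygous and 53.9 ± 7.3 CPM in wild type libraries (log2 fold change 0.44, SE 0.10, edgeR adjusted p = 0.044). The Kat6b call held in 13 of 35 alternative settings, and was lost for instance without the batch term (0.32, adjusted p = 0.166). In the other 4 comparisons with wild type 0 of 27 cofactors were called, the medians being -0.02 in Kat6a homozygous, 0.06 in Kat6a heterozygous, 0.09 in Dlx5 homozygous and 0 in Dlx5 heterozygous libraries. Hdac5, a histone deacetylase that binds RUNX2, had the smallest p in libraries labelled Kat6a homozygous, at -0.22 (SE 0.060, edgeR adjusted p = 0.062).

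Of 23 osteoblast genes, 15 were high enough to test. Among the 8 that were not, the mature osteoblast and osteocyte genes Bglap, Ibsp, Dmp1 and Mmp13 reached at most 0.521, 1.04, 0.226 and 0.092 CPM in any library. Col1a2, a chain of type I collagen, rose in double heterozygous libraries to 284 ± 41 CPM, against 221 ± 31 CPM in wild type (log2 fold change 0.66, SE 0.11, edgeR adjusted p = 0.00851), the single call on the list in any comparison with wild type (1 of 15, where 0.296% of all genes rose). Without the batch term the Col1a2 value was 0.36 (edgeR adjusted p = 0.299), without double heterozygous replicate 1 it was 0.71 (edgeR adjusted p = 0.216), and with batch 2 alone it was 0.60 (edgeR adjusted p = 0.168). Both groups overlapped in Col1a2, at 239 to 337 CPM in double heterozygous and 181 to 248 CPM in wild type libraries, and the gene is also expressed by mesenchyme that forms no bone. The list median in that comparison was 0.26 against 0.007 for all genes. In libraries labelled Kat6a homozygous 0 of 15 were called, with a median of 0.1 against 0.006. The secreted phosphoprotein gene Spp1 was the nearest to a call there, at -0.92 (SE 0.27, edgeR adjusted p = 0.0893). The medians were 0.05 in Kat6a heterozygous, 0.13 in Dlx5 homozygous and 0.09 in Dlx5 heterozygous libraries. Col1a2 had uncalled values of 0.61 in Dlx5 homozygous and 0.43 in Dlx5 heterozygous libraries (edgeR adjusted p = 0.0568 and 0.109). For Kat6a heterozygous libraries the Col1a2 value was 0.22 and for Kat6a homozygous libraries 0.06 (edgeR adjusted p = 0.371 and 0.833). Alpl, alkaline phosphatase, was at 7.40 to 10.1 CPM in libraries labelled Kat6a homozygous, 6.39 to 9.65 CPM in double heterozygous and 7.26 to 11 CPM in wild type libraries, with no call. Its fitted log2 fold change was negative in every comparison with wild type. The values were -0.68 in Dlx5 homozygous, -0.58 in double heterozygous and -0.38 in Dlx5 heterozygous libraries (edgeR adjusted p = 0.267, 0.156 and 0.343). Kat6a heterozygous libraries gave -0.31 and Kat6a homozygous libraries -0.05 (edgeR adjusted p = 0.454 and 0.911).

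Cartilage genes, which share the mesenchymal precursors of the bone lineage, gave calls in 1 comparison with wild type. In libraries labelled Kat6a homozygous 2 of 10 tested genes fell (1.06% of all genes fell) and 0 rose (0.469% of all genes rose), with a list median of -0.12 against 0.006. Col9a1, a chain of type IX collagen, fell by 0.32 on the log2 scale (SE 0.068, edgeR adjusted p = 0.0139), with 177 ± 10 CPM in libraries labelled Kat6a homozygous and 221 ± 15 CPM in wild type. Col2a1, the main collagen of cartilage, fell by 0.28 (SE 0.072, edgeR adjusted p = 0.0393), with 769 ± 19 CPM in libraries labelled Kat6a homozygous and 936 ± 46 CPM in wild type (SD, n = 4 each). Of 35 alternative settings the Col9a1 call held in 32 and the Col2a1 call in 26, with values between -0.36 and -0.26 throughout. In the other 4 comparisons with wild type 0 of 10 were called, with medians from -0.01 to 0.05.

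Blood genes linked to Runx1 gave calls for Mpo, the granulocyte enzyme myeloperoxidase, which was 1 of 18 tested in the Kat6a homozygous comparison (0.469% of all genes rose) and in the double heterozygous one (0.296%). Mpo rose to 13.3 ± 3.2 CPM in libraries labelled Kat6a homozygous and 4.36 ± 1.8 CPM in double heterozygous libraries, against 3.15 ± 0.51 CPM in wild type (SD, n = 4 each). The log2 fold changes were 2.06 (SE 0.20, edgeR adjusted p = 2.31e-07) in Kat6a homozygous and 1.36 (SE 0.27, edgeR adjusted p = 0.0202) in double heterozygous libraries. The Kat6a homozygous call held in all 35 alternative settings (1.91 to 2.16). Double heterozygous and wild type libraries overlapped in Mpo, at 2.87 to 6.84 CPM in double heterozygous and 2.42 to 3.62 CPM in wild type libraries. The double heterozygous value was 0.45 without the batch term (edgeR adjusted p = 0.632), 1.73 without double heterozygous replicate 1 (adjusted p = 0.216) and 1.19 without Kat6a heterozygous replicate 4 (adjusted p = 0.0756). The list median was 0.05 in Kat6a homozygous libraries against 0.006 for all genes, and 0.12 in double heterozygous libraries against 0.007. The medians were -0.02 in Kat6a heterozygous, 0.13 in Dlx5 homozygous and -0.13 in Dlx5 heterozygous libraries, with no call in any of these. Summed over the 10 myeloid markers, of which none was undetected and 2 (Mpo and Mrc1) rose in libraries labelled Kat6a homozygous, the level was 48.8 to 72.9 CPM in libraries labelled Kat6a homozygous, 45.3 to 56.1 CPM in double heterozygous and 38.6 to 50.4 CPM in wild type libraries. That sum includes Mpo and Mrc1 themselves. The other 8 markers summed to 29.6 to 45.2 CPM in libraries labelled Kat6a homozygous, 32.3 to 40.2 CPM in double heterozygous and 31.8 to 41.9 CPM in wild type libraries, so that the groups overlapped in these sums, which carry no batch term. In libraries labelled Kat6a homozygous 3 of these 8 had a positive fold change, among them Lyz2 at 0.87, and others were negative, such as Cx3cr1 at -0.44 and Spi1 at -0.39, with no call among the 8. In the fit with a batch term, 8 of the 10 markers, Mpo and Mrc1 among them, were positive in double heterozygous libraries. Their list median was 0.49 against 0.007 for all genes. Adgre1 stood at 1.09 and C1qa at 0.99 there (edgeR adjusted p = 0.113 and 0.119), while Spi1 at -0.51 and Cx3cr1 at -0.09 were negative. The part of myeloid cells in the Mpo values was not tested.

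Sensory neuron genes linked to Runx1 and Runx3 gave no call in any comparison. Of 15 listed, 12 were tested, and their medians were -0.08 in libraries labelled Kat6a homozygous, 0.18 in Kat6a heterozygous, 0.41 in double heterozygous, -0.19 in Dlx5 homozygous and 0.23 in Dlx5 heterozygous libraries. Neuron marker levels varied widely between libraries. The 10 neuron markers summed to 40.9 to 225 CPM in Kat6a homozygous, 43 to 404 in Kat6a heterozygous, 111 to 244 in double heterozygous, 39.5 to 53.4 in Dlx5 homozygous, 59.3 to 287 in Dlx5 heterozygous and 48.1 to 347 CPM in wild type libraries. None of the 10 was called against wild type in the Kat6a homozygous or double heterozygous comparison.

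A further setting left out replicate 2 of the Kat6a homozygous, Kat6a heterozygous, Dlx5 heterozygous and wild type groups, called the neuron-rich libraries here. The log2 fold change of Runx2 against wild type was then 1.01 in Kat6a homozygous (edgeR adjusted p = 0.00478), 1.02 in Kat6a heterozygous (0.24), 1.20 in double heterozygous (0.00314), 0.95 in Dlx5 homozygous (0.149) and 1.17 in Dlx5 heterozygous libraries (0.0231). All double heterozygous libraries stayed in, with neuron sums of 111 to 244 CPM, where the Kat6a homozygous library left out had 225 CPM. The wild type libraries that stayed had 48.1 to 49.9 CPM. The double heterozygous value is therefore not one with neuron-rich libraries removed from that group. The 4 libraries left out include the lowest mutant library in Runx2 (2.88 CPM) and the highest of wild type (2.78 CPM), so leaving them out also widens the gap between the groups. The part of neuron content in the Runx2 values was not tested. The arch mesenchyme markers, 8 of 8 tested and none called in the Kat6a homozygous or double heterozygous comparison, summed to 1560 to 1900 CPM in libraries labelled Kat6a homozygous, 1600 to 2050 CPM in double heterozygous and 1540 to 1920 CPM in wild type libraries. The 6 osteoblast markers, of which 3 were tested, summed to 11.2 to 14.5 CPM in libraries labelled Kat6a homozygous, 10.6 to 13.9 CPM in double heterozygous and 10.7 to 14.3 CPM in wild type libraries, while 3 of the 6 were too low to test.

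By likeness over the 24 libraries, with the batch effect removed and among 12813 genes, the levels of Col6a3 (Pearson r = 0.83), Lrrc9 (0.82), Strn3 (0.78), Pou6f1 (0.78) and Tmc3 (0.78) were most like those of Runx2. These correlations are descriptions, since the libraries share group means and depth and the genes were picked as the highest. Col6a3, a chain of type VI collagen, averaged 23.5 ± 7.3 CPM in libraries labelled Kat6a homozygous, 25.5 ± 7.9 CPM in double heterozygous and 12.6 ± 3.3 CPM in wild type libraries (SD, n = 4 each). Strn3, which separated all mutant from all wild type libraries, averaged 139 ± 4.0 CPM in libraries labelled Kat6a homozygous, 137 ± 4.1 CPM in double heterozygous and 122 ± 2.4 CPM in wild type libraries. Without removal of the batch effect 2 of these 5 genes, Strn3 and Tmc3, were among the highest 5.

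Cbfb was most like Hmga2 (r = 0.95), a chromatin protein of embryonic cells, the transcription factor gene Prdm16 (0.93), Sec23a (0.92), of the COPII vesicle coat, Arhgap28 (0.92) and the transcription factor gene Dach1 (0.91). The same 5 genes were the highest without removal of the batch effect. Runx1 was most like Pik3ip1 (0.78), Bcl11b (0.75), Fos (0.74), Pcdhgb6 (0.73) and Egln3 (0.72), with 3 of the 5 kept. Genes most like Sp7 included Cav1 (0.75), Tmem9b (0.72), Rint1 (0.67) and Cacna1a (0.67). Cav1 stood at 0.43 without the removal of the batch effect.

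Among the members themselves, Runx1 and Runx2 gave r = 0.50, Runx2 and Sp7 0.44, Cbfb and Sp7 0.37, Cbfb and Runx2 0.36, Runx1 and Sp7 0.34 and Cbfb and Runx1 0.03, each over the 24 libraries with the batch effect removed. None of these reaches the likeness of the genes named for each member, which were picked as the highest of all genes compared.

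**Figure D4:**
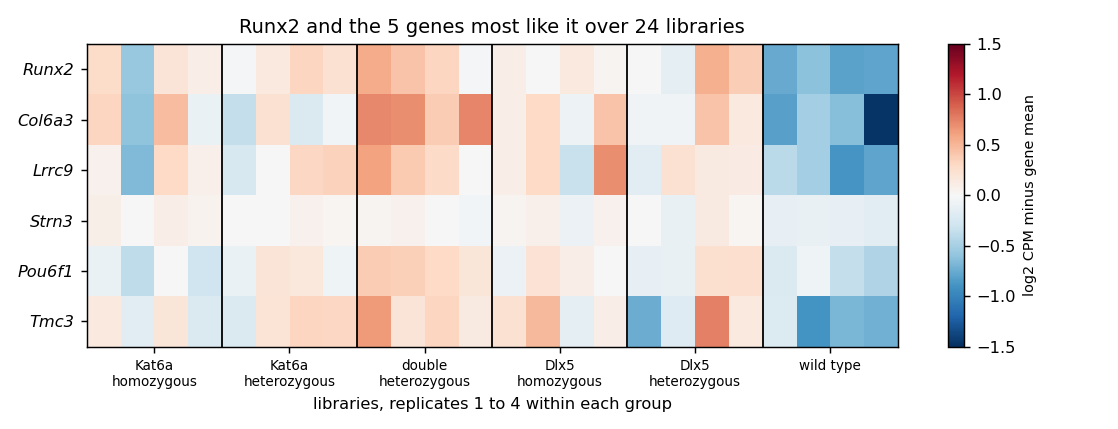
Levels of Runx2 and of the 5 genes most like it in each of the 24 libraries, ordered by labelled group with mutant groups left of wild type, as log2 CPM minus the gene's own mean with the batch effect removed (colour scale of ±1.5). Wild type columns are low in Runx2 and, less evenly, in Col6a3 (r = 0.83), Lrrc9 (0.82), Strn3, Pou6f1 and Tmc3 (0.78 each).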

How the data were processed

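Pharyngeal arch RNA of 24 libraries was sequenced after preparation with a stranded mRNA kit, per the labels' protocols. The submitters' processing notes name CASAVA 1.8.2, featureCounts and the build mm10. Not given in the sources used here are aligner, annotation release and strand setting. What the authors deposited were raw counts, listed by Entrez identifier with a gene length, as 1 table and 24 single files with equal values. Entries without an identifier (568, with 0.182% to 0.259% of a library's counts) were left out. Symbols were matched for 25275 of 26611 identifiers, and coordinates and promoter sequences are RefSeq's for GRCm38.p6.

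The test was edgeR 4.0.16 in R 4.3.3: filterByExpr by group (14506 genes kept), TMM scaling, and a robust quasi-likelihood fit of 6 group means and batch (24 libraries, 17 residual degrees of freedom, common BCV 0.0896), with Benjamini-Hochberg adjustment over all genes and calls at an adjusted p under 0.05. Standard errors come from the F statistic. CPM is TMM-scaled, RPKM divides it by the deposited length, and log2 CPM used a prior count of 2. Alternatives were DESeq2 1.42.0, limma 3.58.1 voom with quality weights, no batch term, RLE scaling, a block for the replicate number, a fit of the compared groups only, batch 2 alone, no filter, a stricter filter (1 CPM in 12 libraries), removal of the neuron-rich libraries (replicate 2 of 4 groups), and each library left out. Length-corrected offsets and leaving libraries out of the permutation test were chosen after seeing the data. The procedure was tested on simulated data.

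Members, the 6 pathway lists and the 10 marker lists were chosen with earlier results of these data known. Named genes are the members, the targeted genes, up to 6 called genes per list and comparison (with none called, up to 2 with the smallest p), and the 5 genes most correlated with each member at a mean of at least 1 CPM, predicted genes left out. One gene that this rule selects is not reported here. Bglap, Ibsp, Dmp1, Mmp13, Supt3, Dlx6os1, the myeloid markers without a call and the genes that separate all mutant from wild type libraries fall outside that rule, as do uncalled genes named beside a called one, and were picked with their values in view. Nothing in the labels says what a replicate number stands for. Same-numbered Kat6a heterozygous and wild type libraries deviated from their group means alike, with correlations above 0.1 in all 4 pairs (0.183 to 0.661). Every other comparison with wild type had at least one pair at or below 0.1. Such likeness is a hint of pairing from the data and not from the design. Libraries were not paired by number in the reported edgeR values or in the permutation test. The replicate number was used only as a block, in an alternative setting. The design text calls the replicates biological, and nothing says whether they share a litter.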

Additional observations from a re-analysis of the deposited data

Results flagged for a closer look

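Of 24 groups of 4 libraries examined (4 tested family genes in 6 groups), 2 held a library that stood far from its 3 neighbours, by a measure that flags about 1 in 20 groups by chance. Cbfb in libraries labelled Dlx5 homozygous had replicate 3 at 214 CPM, below the 241 to 246 CPM of the other 3 libraries, and this gap filled 0.844 of the group's range. Sp7 in libraries labelled Kat6a homozygous had replicate 4 at 2.73 CPM, above the 1.86 to 1.98 CPM of the other 3 libraries, with a gap of 0.862 of the range. Neither gene was called in these groups, with or without that library.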

How the results depend on the processing

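Runx2 was above wild type in every setting run for the 5 comparisons with wild type, with log2 fold changes of 0.71 to 1.01 in Kat6a homozygous, 0.87 to 1.02 in Kat6a heterozygous, 0.88 to 1.34 in double heterozygous, 0.69 to 0.97 in Dlx5 homozygous and 0.86 to 1.17 in Dlx5 heterozygous libraries. Its call was less stable. In the Kat6a homozygous comparison it held in 28 of 35 settings, with 0 family genes called with batch 2 alone, with only the compared groups and in limma voom, and 0 to 1 with a library left out. In double heterozygous libraries it held in 30 of 35 settings, with 0 called with batch 2 alone and with only the compared groups, and 0 to 1 with a library left out. Kat6a heterozygous libraries gained 1 call in 1 setting (0 to 1 with a library left out), where DESeq2 gave Runx2 no adjusted p. Dlx5 heterozygous libraries gained 1 call without the neuron-rich libraries, 1 in DESeq2 and 0 to 1 with a library left out. The cause was not tested. With the replicate number as a block, Runx2 was 0.81 in Kat6a homozygous (adjusted p = 0.0186), 1.09 in double heterozygous (0.0328) and 0.95 in Kat6a heterozygous libraries (0.116), and the block changed no other call of a family gene. The exact permutation value of Runx2 in Kat6a homozygous against wild type libraries within batch 2 ranged from 0.65 to 0.93 with a library left out. Its two-sided exact p was then 0.0286 or 0.0571, where 0.0286 is the smallest possible.

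Some values that were not called changed sign with the setting. Runx1 became -0.06 in Dlx5 homozygous and -0.01 in Kat6a heterozygous libraries with length-corrected offsets. Between Kat6a homozygous and Kat6a heterozygous libraries Runx1 became -0.01 without the batch term and -0.02 in limma voom. Sp7, at 0.38 in Dlx5 homozygous libraries as reported, became -0.12 without the batch term. Between Dlx5 homozygous and Dlx5 heterozygous libraries Sp7 became -0.24 without the batch term, -0.12 with only the compared groups and -0.04 in limma voom, and its non-additive part became 0.13 with batch 2 alone. With a library left out, Runx1 ranged from -0.01 to 0.20 in Kat6a homozygous, -0.07 to 0.10 in Dlx5 homozygous and -0.01 to 0.17 in Kat6a heterozygous libraries against wild type, and from -0.09 to 0.12 between Kat6a homozygous and Kat6a heterozygous libraries. Sp7 ranged from -0.09 to 0.20 in Kat6a homozygous libraries against wild type, -0.06 to 0.38 between Dlx5 homozygous and Dlx5 heterozygous libraries and -0.21 to 0.13 in the non-additive part. Runx2 ranged from -0.23 to 0.02 between Kat6a homozygous and Kat6a heterozygous and -0.26 to 0.03 between Dlx5 homozygous and Dlx5 heterozygous libraries. The cause was not tested.

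Counts over all genes moved more. Calls ranged over the settings from 64 to 444 in Kat6a homozygous (222 as reported), 1 to 185 in double heterozygous (65), 0 to 38 in Dlx5 homozygous (8), 0 to 196 in Kat6a heterozygous (0) and 0 to 31 in Dlx5 heterozygous libraries (0) against wild type, from 32 to 147 between Kat6a homozygous and Kat6a heterozygous (93), 0 to 18 between Dlx5 homozygous and Dlx5 heterozygous (0), and 0 to 6 in the non-additive part (1). Batch 2 alone gave no value for Dlx5 homozygous libraries, and only the groups compared gave none against wild type. Runx2, Sp7 and Runx3 rest on few counts, so small changes in them were not detectable at this depth.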

Other observations

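Some marker genes of other cell types were called in these comparisons. Mrc1, a mannose receptor of macrophages, rose to 10.4 ± 1.7 CPM in libraries labelled Kat6a homozygous, against 5.67 ± 2.3 CPM in wild type (SD, n = 4 each, log2 fold change 0.88, SE 0.19, edgeR adjusted p = 0.0123). Without Kat6a homozygous replicate 4 the Mrc1 value was 0.76 (edgeR adjusted p = 0.0573). Msc, a factor of branchiomeric muscle precursors, fell to 1.67 ± 0.34 CPM in libraries labelled Kat6a homozygous, against 3.25 ± 0.88 CPM in wild type. Its log2 fold change was -0.93 (SE 0.24, edgeR adjusted p = 0.0478), and the call held in 18 of 35 alternative settings. Msc was the 1 called of 6 muscle markers in that comparison (1.06% of all genes fell). Of the 6 markers 1 was positive, and the list median was -0.38. Cldn5, a tight junction gene of endothelium, fell to 12.7 ± 1.7 CPM in libraries labelled Dlx5 homozygous, against 18.5 ± 1.7 CPM in wild type. These groups have no batch in common. The log2 fold change of Cldn5 was -0.74 (SE 0.15, edgeR adjusted p = 0.0488), and the call held in 13 of 33 alternative settings. Cldn5 was the 1 called of 7 endothelial markers in that comparison (0.0276% of all genes fell). Of the 7 markers 1 was positive, and the list median was -0.13. Pdgfra, a receptor of arch mesenchyme, averaged 221 ± 24 CPM in libraries labelled Kat6a homozygous and 290 ± 22 CPM in Kat6a heterozygous libraries. It fell by 0.43 on the log2 scale between these groups (SE 0.091, edgeR adjusted p = 0.0198), a call held in 27 of 35 settings. Pdgfra was the 1 called of 8 arch mesenchyme markers in that comparison (0.524% of all genes fell). Of the 8 markers 5 were positive, and the list median was 0.02. Col9a1 fell by 0.37 between the same groups (edgeR adjusted p = 0.00726) and Mpo rose by 1.49 (edgeR adjusted p = 0.000138).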
